A study of Mus musculus with 3 samples.

Results

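The comparison set 1 library of colonic mucosa from a mouse line with a global deletion of mir-10b (genotype mir-10b-/-, labelled diabetic, here KO) against 1 library from mir-10b+/+ mucosa labelled healthy (WT). Genotype and disease label therefore differed together and cannot be told apart. Small RNA was made into TruSeq libraries and read as 50-base single reads, and the levels are normalized reads per mature miRNA. The labels used here give no strain, sex, age or number of animals behind a library, and the deletion is global rather than limited to the colon. Of 471 miRNA rows in the table, 415 had a mean of at least 10 over the series' 3 libraries and were compared. The third library, a knockout given a miR-10b-5p mimic, entered only that mean and the scaling factors described below. Just inside the limit, miR-493-5p stood at 15 in KO and 7 in WT, and just outside it miR-491-5p stood at 20 in KO and 8 in WT. Of the 415 rows, 393 were at 10 or more in both KO and WT, 10 reached 10 only in KO, 10 only in WT, and 2 in neither. With 1 library a side there is no replicate spread, so all values below are sizes of difference between 2 libraries, without a test.

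A miRNA gene is transcribed as a hairpin that is cut to a short duplex, whose arms are named 5p and 3p. Usually 1 arm is loaded into an Argonaute protein and kept, while the other is degraded. The loaded arm finds messenger RNAs mainly through its seed, bases 2 to 8 from its 5′ end, so miRNAs that share a seed share many targets. miR-10b is encoded between Hox genes, and in the mouse it has been studied in pancreatic beta cells and in the pacemaker cells of the gut wall, where its loss was linked to diabetes and slow gut transit.

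The sequences that carry the main differences are shown 5′ to 3′ with the seed in capitals, as given by RefSeq for GRCm38.p6, which covers 341 of the 415 rows. The deleted miRNA and its paralog come first. They share a seed and differ by U12A, counted from the 5′ end with the miR-10a-5p base first.
miR-10b-5p: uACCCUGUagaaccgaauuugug
miR-10a-5p: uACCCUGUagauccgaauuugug
These were at least 2-fold higher in KO as deposited, except miR-152-3p, which is shown because it shares the seed of miR-148a-3p. The first 3 share a seed, as do the next 4 and the pair after them.
miR-30a-5p: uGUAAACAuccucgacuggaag
miR-30c-5p: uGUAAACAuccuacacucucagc
miR-30e-5p: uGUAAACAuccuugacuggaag
let-7a-5p: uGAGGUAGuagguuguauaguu
let-7c-5p: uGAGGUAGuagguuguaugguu
let-7g-5p: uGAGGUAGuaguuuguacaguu
miR-98-5p: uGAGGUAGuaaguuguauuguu
miR-148a-3p: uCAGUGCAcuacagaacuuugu
miR-152-3p: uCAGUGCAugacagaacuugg
miR-21a-5p: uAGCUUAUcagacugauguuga
miR-190a-5p: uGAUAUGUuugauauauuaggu
miR-203-3p: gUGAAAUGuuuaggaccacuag
miR-33-5p: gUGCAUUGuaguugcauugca
miR-744-5p: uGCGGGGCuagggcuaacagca
These were lower in KO.
miR-98-3p: cUAUACAAcuuacuacuuuccu
miR-337-3p: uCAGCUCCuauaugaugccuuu
miR-154-5p: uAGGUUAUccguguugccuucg
miR-215-3p: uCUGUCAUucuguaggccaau
miR-142a-5p: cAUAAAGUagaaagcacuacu
miR-29c-3p: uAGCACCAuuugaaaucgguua
The last 2 are arms of a hairpin that differed in opposite directions.
miR-329-5p: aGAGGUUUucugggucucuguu
miR-329-3p: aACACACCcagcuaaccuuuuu

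miR-10b-5p, from the deleted gene, had 14 normalized reads in KO and 18057 in WT, a log2 ratio of KO over WT of -10.23. It ranked 397 among the 471 rows in KO and 44 in WT, and its ratio was the lowest of the 415 rows. Its sequence lies at chr2:74726074-74726096 on the plus strand, within introns of Hoxd3 and Hoxd4. miR-10a-5p, which carries the same seed and lies at chr11:96317186-96317208 in the Hoxb region, had 50417 in KO and 42206 in WT. The sources used here do not say how reads were divided between these near-identical sequences, so the 14 reads in KO are uncertain. The less abundant arm of the paralog, miR-10a-3p, had 382 in KO and 788 in WT, a log2 ratio of -1.04. miR-99b-5p, a more distant relative, had 21848 in KO and 23690 in WT. The other Hox-cluster miRNA genes showed small differences, with miR-196b-5p at 8294 in KO and 9152 in WT and miR-196a-5p at 1992 in KO and 1894 in WT. miR-196a-5p was named after its value was seen. In the Hox-cluster list, 2 of 7 rows passed 2-fold, both downward, miR-10b-5p and miR-10a-3p, where 9.64% of all rows were lower. The miR-10, miR-99 and miR-100 family held the same 2 rows past 2-fold among its 8, and miR-99a-5p and miR-100-5p both stood at 24780 in KO and 14536 in WT.

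Of the 415 rows, 88 had a level in KO at least 2-fold above WT (21.2%) and 40 a level at least 2-fold below (9.64%), after a pseudocount of 1 was added to each value. Together they made up 30.8% of the rows. These counts depended on how the libraries were put on a common scale. The KO column summed to 8124898 normalized reads and the WT column to 4872446, and 3 rows, miR-21a-5p, miR-143-3p and miR-192-5p, held 65.4% of that gap. Scaling both libraries to the same total moved log2 ratios by -0.74, less where a value was low because of the pseudocount, which left 30 rows higher (7.23%) and put 34% of the rows lower, so that 41.2% passed 2-fold in either direction. Median-of-ratios factors, which use the typical row rather than the total, moved them by -0.15, apart from low values, and gave 71 rows higher (17.1%) and 61 lower (14.7%), 31.8% in either direction. Under all 3 scalings, 30 rows were at least 2-fold higher (7.23%) and 40 were at least 2-fold lower (9.64%). The median log2 ratio of the 415 rows was 0.13 as deposited, -0.60 with equal totals and -0.02 with median-of-ratios factors. A further 104 rows had a sign that depended on the scaling, while 120 were above 0 and 191 below 0 under all 3.

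**Figure D1:**
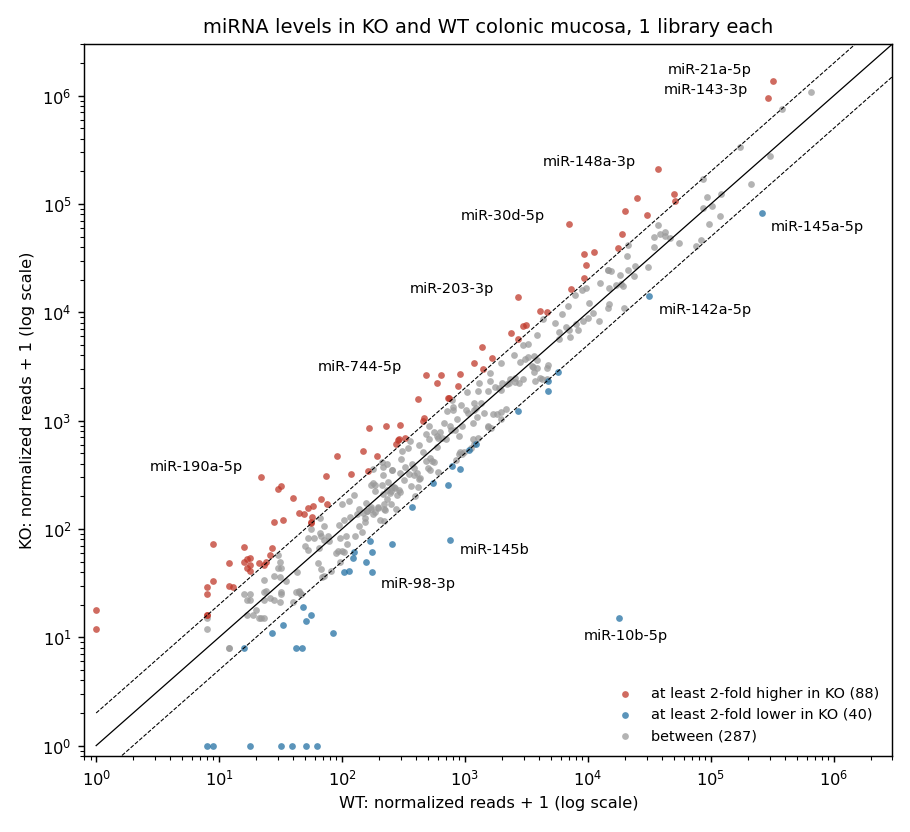
Each point is a miRNA row, with its normalized reads plus 1 in KO on the vertical axis and in WT on the horizontal axis, both on log scales. The solid line marks equal values and the dashed lines a 2-fold difference, and miR-10b-5p lies far below the rest at 14 in KO and 18057 in WT.

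The split between higher and lower rows also changed with abundance. Among the 113 rows with a mean from 10 to 100, 30 passed 2-fold upward and 22 downward as deposited, with a median of 0.13, and the median was -0.59 with equal totals. Among the 48 rows with a mean from 10000 to 100000, 14 were higher and 1 was lower, and their median log2 ratio was 0.50 as deposited and -0.24 with equal totals. From 1000 to 10000, 16 of 91 rows passed upward and 5 downward, and the median was 0.08 as deposited and -0.66 with equal totals. At 100000 or more, 3 of 13 passed upward and 1 downward, and the median was 0.72 as deposited and -0.02 with equal totals. From 100 to 1000, 25 of 150 passed upward and 11 downward, and the median was -0.03 as deposited and -0.77 with equal totals. The KO library was also more concentrated, with 66.7% of its total in its 10 most abundant rows against 58.2% in WT, and 7 rows were in both top 10s.

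miR-21a-5p, a miRNA raised in many inflamed and injured tissues and encoded within an exon of Vmp1, had the largest gain in share of the library. It had 1360772 reads in KO and 319136 in WT, which was 16.7% of the KO total and 6.55% of the WT total. It was the most abundant miRNA in KO and the third in WT. miR-143-3p, a miRNA of smooth muscle and other mesenchymal cells, took 11.7% in KO and 6.04% in WT. miR-148a-3p, which represses regulators of lipid handling and of B-cell tolerance, took 2.58% in KO and 0.769% in WT and ranked 7 in KO and 25 in WT.

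Shares were lower in KO for miRNAs of several kinds. miR-145a-5p, which drives smooth muscle differentiation, took 1.03% in KO and 5.37% in WT. miR-27b-3p, a repressor of adipocyte formation, took 3.42% in KO and 6.16% in WT, with normalized reads of 277980 in KO and 299991 in WT. miR-378a-3p, encoded within the gene for the mitochondrial regulator PGC-1 beta, took 1.89% in KO and 4.35% in WT. miR-23a-3p took 0.957% in KO and 2.42% in WT, and miR-429-3p of the miR-200 family took 0.578% in KO and 1.72% in WT.

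**Figure D2:**
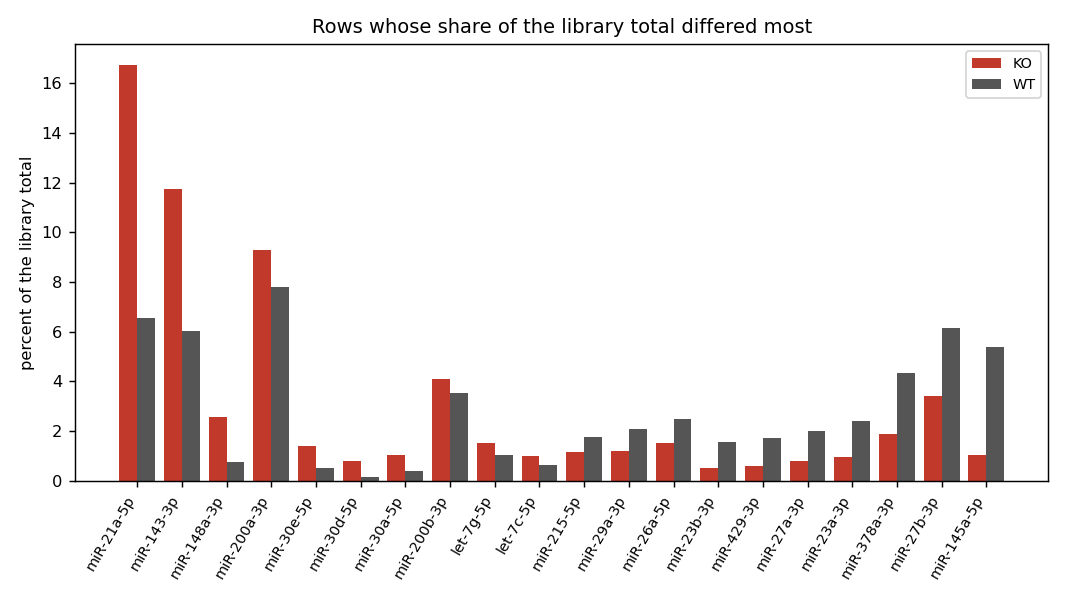
Bars give the percent of the library total in KO and in WT for the 10 rows that gained and the 10 rows that lost most share in KO. miR-21a-5p had the largest gain, at 16.7% in KO and 6.55% in WT, and miR-145a-5p the largest loss, at 1.03% in KO and 5.37% in WT.

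miR-190a-5p had the highest ratio of the rows past 2-fold under all 3 scalings, when only means of 100 or more are considered. It lies in an intron of Tln2 and had 304 reads in KO and 21 in WT, a log2 ratio of 3.79 as deposited and 3.08 with equal totals. miR-30d-5p had 65605 in KO and 7003 in WT, 9.37 times as many. miR-494-3p, from the imprinted Dlk1-Dio3 cluster, had 247 in KO and 31 in WT. miR-183-3p, the minor arm of a hairpin expressed in sensory and neuroendocrine cells, had 231 in KO and 29 in WT. All 4 kept a log2 ratio above 2 with equal totals. Of these, miR-190a-5p, miR-494-3p and miR-183-3p reached a mean of 100 only through KO, where they were high. The third library had 97, 65 and 83 for them.

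Several other high rows are known for roles in epithelium and metabolism. miR-203-3p, which pushes stratified epithelium toward differentiation, had 13832 in KO and 2687 in WT, 5.15-fold higher. miR-33-5p, which sits in an intron of Srebf2 and represses cholesterol export, had 848 in KO and 164 in WT, 5.17-fold higher. miR-744-5p, in an intron of Map2k4, had 2646 in KO and 479 in WT. miR-19a-3p, a member of the growth-promoting miR-17-92 cluster, had 2633 in KO and 634 in WT. miR-542-3p and miR-339-3p were higher by log2 ratios of 2.36 and 2.29. Their log2 ratios with equal totals lay between 1.32 for miR-19a-3p and 1.73 for miR-744-5p.

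Of the lower rows of that level, miR-145b stood next to miR-10b-5p, with 78 in KO and 759 in WT, a log2 ratio of -3.27. It is a close relative of miR-145a-5p, which had 83319 in KO and 261621 in WT, so the division of reads between them is uncertain. miR-98-3p had 39 in KO and 175 in WT, and miR-337-3p, of the Dlk1-Dio3 cluster, had 71 in KO and 256 in WT. miR-154-5p and miR-329-3p of the same cluster were at 256 and 357 in KO, against 732 and 916 in WT. miR-142a-5p, made in blood cells, had 14200 in KO and 31674 in WT. miR-130a-3p, which is linked to vessel growth, had 1234 in KO and 2722 in WT. miR-29c-3p, which restrains collagen production, had 2314 in KO and 4730 in WT. miR-124-3p, a neuronal miRNA, had 77 in KO and 168 in WT. The remaining named rows, miR-215-3p, miR-26a-3p and miR-193a-3p, had log2 ratios of -1.33, -1.21 and -1.06. All 40 rows lower as deposited were also lower under the other scalings, which move most ratios downward, so this is no separate support for them.

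**Figure D3:**
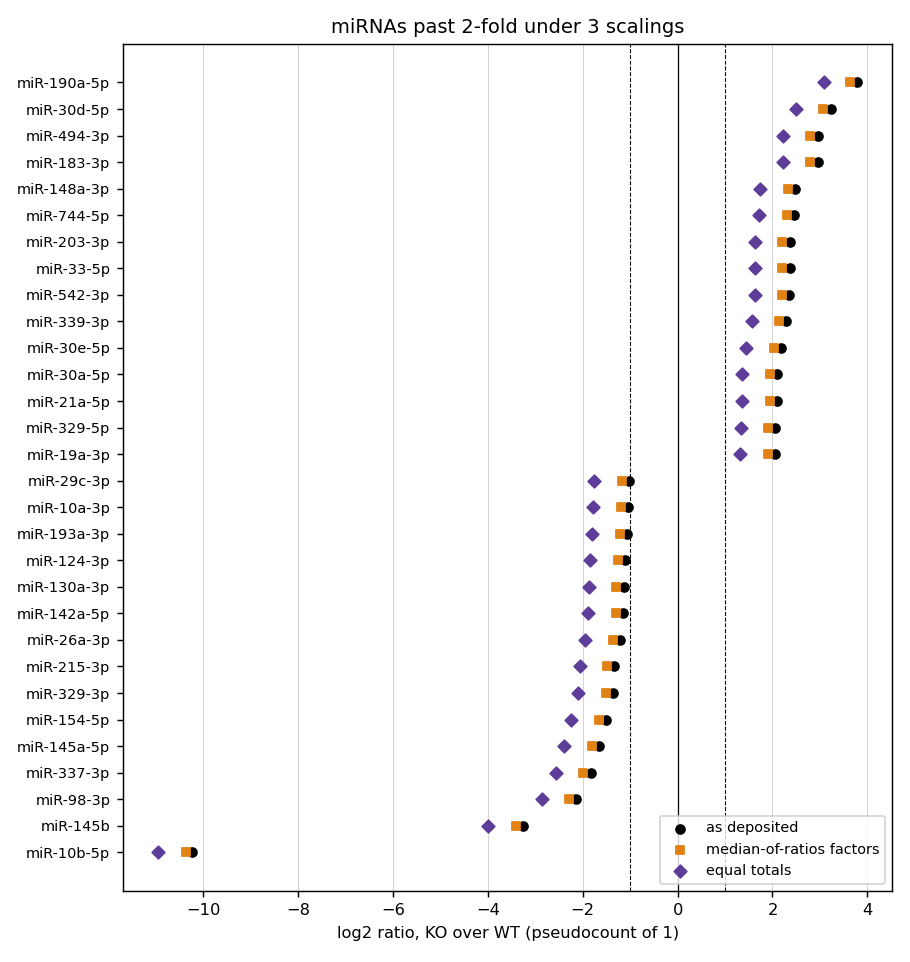
Each line of points gives the log2 ratio of KO over WT for a miRNA with a mean of at least 100 under 3 scalings, and dashed lines mark 2-fold. The 15 highest and 15 lowest rows were chosen among those past 2-fold under every scaling, so they lie outside the dashed lines by selection. Equal totals give the lowest value in each, because that scaling moves the ratios downward.

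Some rows past the filter were listed at 0 in 1 library, 7 in KO and 2 in WT. miR-490-5p was listed at 0 in KO and had 61 reads in WT, miR-1843b-3p was listed at 0 in KO and had 50 in WT, and miR-101a-5p was listed at 0 in KO and had 38 in WT. miR-103-5p was listed at 0 in KO and had 31 in WT, while its partner miR-103-3p, a regulator of insulin sensitivity, had 27480 in KO and 9567 in WT. miR-1843b-3p and miR-103-5p passed the filter only through WT, as the third library had 8 and 0 for them. miR-34b-5p had 17 in KO and was listed at 0 in WT. In the whole table, 39 rows were listed at 0 in KO and 6 in WT.

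The tissue label was read against marker miRNAs. Epithelial miRNAs were abundant in both libraries, as the miR-192, miR-194 and miR-215 list took 16.6% of the KO total and 17.1% of the WT total, and the miR-200 family, which keeps cells epithelial, took 15.1% in KO and 14.6% in WT. Smooth muscle miRNAs were also abundant in material labelled mucosa, at 12.96% in KO and 11.7% in WT, and the part of muscle content in the other differences was not tested. In bulk tissue, fewer cells of a type and less RNA per cell cannot be told apart. Every cell type list had a summed level above 0 in both libraries, and red blood cells had the lowest, 1855 in KO and 2198 in WT.

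Within the epithelial lists the rows differed from each other. As deposited, the miR-200 family had 4 rows of its 9 past 2-fold upward and 0 downward, where 21.2% of all rows were higher and 9.64% lower. The 4 were miR-200a-5p, miR-200b-5p and both arms of miR-200c. Of these only miR-200c-3p is the more abundant arm of its hairpin, and miR-200c-5p had 29 in KO and 11 in WT. Among the 3p arms of the family, 1 of 5 passed upward and 2 had a ratio below 0. The family median log2 ratio was 0.99, against 0.13 for all rows. With equal totals the family median was 0.25, against -0.60 for all rows. Then 1 of its rows was higher and 2 were lower, where 7.23% of all rows were higher and 34% lower. miR-200a-3p had 754583 in KO and 380522 in WT, and miR-200b-3p had 334093 in KO and 171853 in WT. miR-429-3p, from the same cluster at chr4:156053916-156055742, had 46991 in KO and 83919 in WT. From the miR-192, miR-194 and miR-215 genes, 1 row out of 6 passed 2-fold, miR-215-3p, which was lower. The 5p arms had log2 ratios from 0.12 to 0.98 and the 3p arms from -1.33 to -0.55. In the list for endocrine cells, 2 of 4 rows were higher as deposited, where 21.2% of all rows were, and with equal totals 0 were higher and 1 was lower. There miR-7a-5p had 7580 in KO and 3110 in WT, whereas miR-375-3p, which is needed for insulin-producing cells, had 115315 in KO and 93198 in WT.

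Muscle, stromal and neural lists gave no uniform direction. As deposited, where 21.2% of all rows were higher and 9.64% lower, smooth muscle had 2 of 5 rows higher, both arms of miR-143, and 2 lower, miR-145a-5p and miR-145b. With equal totals it had 1 higher and 2 lower, where 7.23% of all rows were higher and 34% lower. The median of the smooth muscle rows was -0.17 as deposited, and their summed level was 1052622 in KO and 569091 in WT. Striated muscle had 2 of 4 rows higher and 0 lower as deposited, 0 higher and 2 lower with equal totals, and 1 of each with median-of-ratios factors. Of the higher rows, miR-1a-3p had 7441 in KO and 2989 in WT. The other, miR-499-5p, was at a low level and on the 2-fold limit, with 15 in KO and 7 in WT. Fibroblast and mesenchyme had 0 of 5 rows past 2-fold in either direction, with miR-199a-5p at 24214 in KO and 15354 in WT. In endothelium 0 of 2 rows passed, and in neurons 1 of 13 passed upward and 1, miR-124-3p, downward.

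Blood and inflammation lists differed from each other. For white blood cells, the summed level was 43067 in KO and 50516 in WT and the median ratio was -0.29. Only miR-146a-5p passed upward and only miR-142a-5p downward among those 7 rows as deposited. With equal totals 0 passed upward and 4 downward, where 7.23% of all rows were higher and 34% lower. miR-146a-5p, which restrains inflammatory signalling, had 20555 in KO and 9351 in WT, and miR-342-3p had 3074 in KO and 4674 in WT. Of the 4 red blood cell rows, both arms of miR-144 were at least 2-fold higher as deposited, where 21.2% of all rows were. miR-144-3p had 689 in KO and 324 in WT. miR-144-5p, on the limit, had 45 in KO and 22 in WT. With equal totals 0 were higher and 1 was lower, where 7.23% of all rows were higher and 34% lower. Median-of-ratios factors also gave 0 higher and 1 lower, where 17.1% of all rows were higher and 14.7% lower. The lower row was miR-451a, from the miR-144 cluster, with 849 in KO and 1615 in WT. Inflammation and injury gave 5 upward and 0 downward calls among 13 rows as deposited, where 21.2% of all rows were higher and 9.64% lower. With equal totals there were 1 upward and 2 downward, where 7.23% of all rows were higher and 34% lower. The list median was 0.55 as deposited and -0.19 with equal totals, against 0.13 and -0.60 for all rows. Its members past 2-fold as deposited were both arms of miR-21a, miR-146a-5p, miR-146b-5p and miR-132-5p, and miR-21a-5p made up most of its summed level. miR-155-5p, induced in activated immune cells, had 693 in KO and 605 in WT.

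Lists tied to the diabetic label were mixed. The 14 rows linked to insulin secretion and diabetes had a median of 0.16, against 0.13 for all rows. Past 2-fold there were 3 upward and 1 downward as deposited, shares near the 21.2% and 9.64% of all rows. With equal totals there were 1 upward and 4 downward, where 7.23% of all rows were higher and 34% lower. The higher rows as deposited were miR-148a-3p, miR-7a-5p and miR-7b-5p, and the lower row was miR-26a-3p. Lipid and energy metabolism, with 10 rows, had miR-33-5p and miR-103-3p higher and miR-103-5p lower as deposited, and 1 row higher and 7 lower with equal totals. Its median was -0.44 as deposited and -1.17 with equal totals. In the miR-29 family, which holds back collagen genes, 1 row of 6 passed upward as deposited, and downward only miR-29c-3p did. The upward row was the less abundant arm miR-29b-5p, with 121 in KO and 32 in WT, while all 3 of the 3p arms were below 0. With equal totals 1 row was upward and 3 downward, where 7.23% of all rows were higher and 34% lower. In that family miR-29a-3p had 95703 in KO and 101418 in WT.

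**Figure D4:**
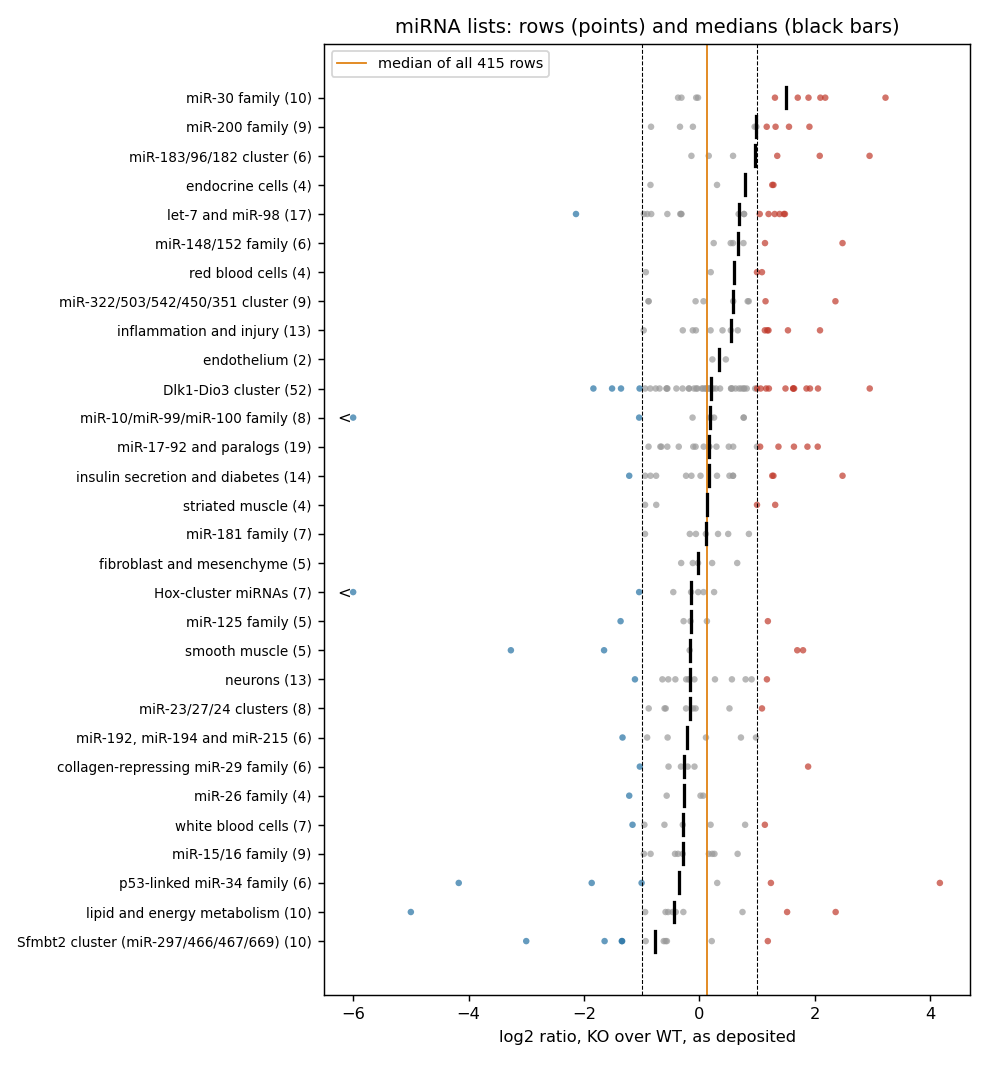
Points are the log2 ratios of KO over WT of the rows of each list as deposited, red when at least 2-fold higher and blue when at least 2-fold lower, with the pseudocount applied also to rows listed at 0 in 1 library, and black bars are list medians. The value of miR-10b-5p, -10.23, is drawn at the left edge with a mark, the orange line is the median of all rows at 0.13, and the miR-30 family has the highest list median at 1.51.

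The miR-30 family, which acts in epithelial differentiation and autophagy, had the highest median of the 30 lists, 1.51 as deposited, 0.77 with equal totals and 1.36 with median-of-ratios factors. All 5 of its 5p arms passed 2-fold upward as deposited, where 21.2% of all rows did. With equal totals the median of the 5p arms was 1.36, and miR-30b-5p fell just short of 2-fold at a log2 ratio of 0.97. miR-30e-5p had 113295 in KO and 24946 in WT, miR-30a-5p had 85382 in KO and 19934 in WT, miR-30c-5p had 34410 in KO and 9266 in WT, and miR-30b-5p had 36242 in KO and 11103 in WT. They come from several places, with miR-30e-5p and a copy of miR-30c-5p in introns of Nfyc at chr4:120769584-120772681 and miR-30a-5p at chr1:23272274-23272295. Among the 3p arms of the same hairpins, 1 of 5 passed 2-fold upward and the median log2 ratio was -0.05.

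The let-7 family, which restrains growth and marks differentiated cells, differed by arm as well. All 9 of its 5p arms, miR-98-5p included, had a log2 ratio above 0, from 0.68 to 1.48 as deposited, and 6 passed 2-fold, where 21.2% of all rows were higher. With equal totals 0 passed, where 7.23% of all rows were higher. The highest ratio was then 0.75 for let-7a-5p, and let-7b-5p was below 0 at -0.06. let-7g-5p had 124550 in KO and 50354 in WT, let-7a-5p had 53329 in KO and 19060 in WT, and let-7c-5p had 79683 in KO and 30393 in WT. Below 0 were all 8 of its 3p arms, from -2.14 to -0.31 as deposited. let-7c-3p had 2398 in KO and 4669 in WT. With equal totals the median of the 5p arms was 0.46 and that of the 3p arms -1.43. Near-identical let-7 sequences can exchange reads, so single members are uncertain.

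Other seed groups varied among themselves. In the group with seed CAGUGCA, miR-148a-3p had 209390 in KO and 37461 in WT, miR-148b-3p had 10136 in KO and 4603 in WT, and miR-152-3p had 50079 in KO and 34337 in WT. In the group with seed CCCUGAG, miR-125b-5p had 16539 in KO and 7257 in WT, while miR-125a-5p had 6833 in KO and 8251 in WT. The group with seed AGUGCAA held opposite members, as miR-301a-3p had a log2 ratio of 1.83 and miR-130a-3p one of -1.14. The group with seed AGCACCA, the miR-29 3p arms, had the lowest median of the 12 groups, -0.20, followed by AGUGCAA at -0.05 and AAAGUGC, the miR-17 group, at 0.01.

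Arms of the same hairpin often differed in KO over WT. For 89 hairpins both arms had a mean of at least 100, and the median distance between the log2 ratios of their arms was 0.92. Of these, 26 pairs lay within 0.5 of each other and 42 were at least 1 apart, a 2-fold difference. The ratios of the arms had Pearson's r of 0.11 over the 89 hairpins, a description of points that share the same 2 libraries. In 4 pairs both arms were at least 2-fold higher, miR-21a, miR-143, miR-30d and miR-455, in 0 were both lower, and in 2 the arms passed 2-fold in opposite directions.

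Those 2 hairpins were miR-329 and miR-98. miR-329-5p had 307 in KO and 73 in WT, while miR-329-3p had 357 in KO and 916 in WT, so the 5p arm held 46.2% of the hairpin's reads in KO and 7.38% in WT. miR-98-5p had 3821 in KO and 1662 in WT, while miR-98-3p had 39 in KO and 175 in WT. Their arms each come from a single locus, in RefSeq. For miR-744 the 5p arm held 95.1% of the reads in KO and 73.0% in WT. In miR-183 the minor arm differed instead, as miR-183-5p had 26951 in KO and 24064 in WT. miR-7a-3p had 509 in KO and 916 in WT, against the higher 5p arm given above. miR-142a-3p had 2753 in KO and 1587 in WT, the opposite direction from miR-142a-5p.

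**Figure D5:**
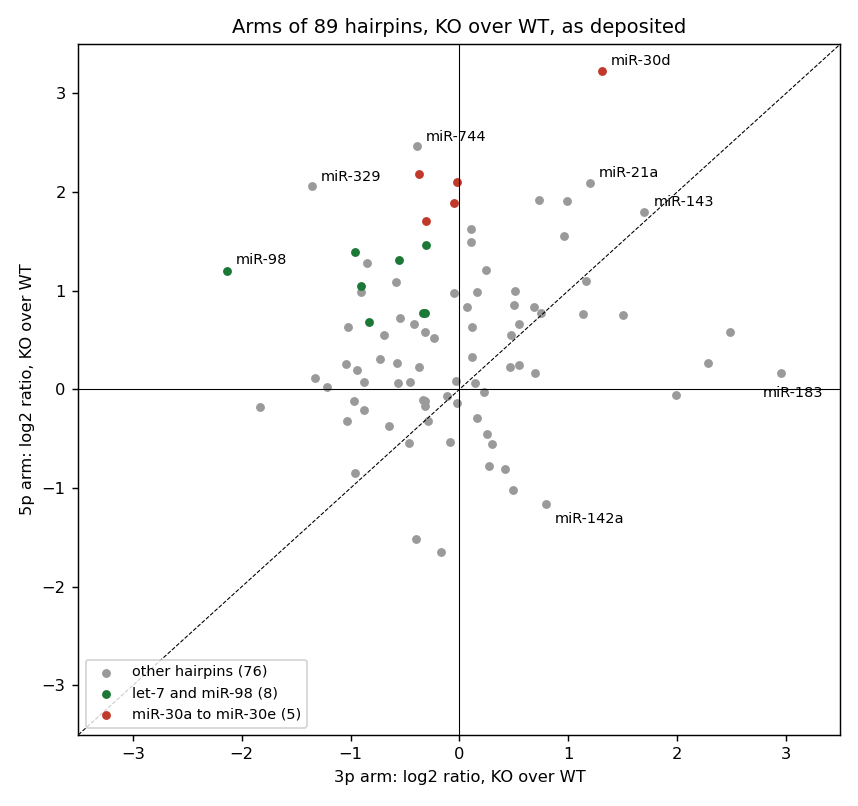
Each point is a hairpin whose arms both had a mean of at least 100, with the log2 ratio of KO over WT of the 5p arm on the vertical axis and of the 3p arm on the horizontal axis. Points of the let-7 family and miR-98 lie in the upper left, higher for 5p and lower for 3p, and 42 of the 89 points lie at least 1 from the dashed line of equal ratios, measured along an axis.

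By the first base of the RefSeq sequence, the median log2 ratio as deposited was 0.46 over 149 rows that start with U, -0.06 over 96 that start with A, -0.06 over 73 that start with C and 0.58 over 23 that start with G. Argonaute proteins favour U at that position. With equal totals the medians were -0.28 for U, -0.80 for A, -0.79 for C and -0.11 for G. The let-7 5p arms and miR-30a-5p, miR-30c-5p and miR-30e-5p are among these rows, so this repeats the families above in part. miR-30b-5p and miR-30d-5p are not, as they have no RefSeq sequence here. No split of higher and lower rows by first base is given, because only 30 of the 40 lower rows have a RefSeq sequence, which makes such a comparison void.

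Loci that lie within 10 kb of each other gave further groups. The miR-34b and miR-34c locus at chr9:51103044-51103632, whose genes p53 activates, held members that differed in opposite directions. There miR-34b-3p had 13 in KO and 50 in WT, and miR-34c-3p was listed at 0 in KO and had 17 in WT. miR-34c-5p, the abundant arm, had 668 in KO and 282 in WT. Across the miR-34 family as deposited, all 3 of the 3p arms passed 2-fold downward and 2 of the 5p arms upward. Over all rows 9.64% were lower and 21.2% higher. With equal totals 3 of the family's 6 rows were lower and 1 was higher, where 34% of all rows were lower and 7.23% higher. miR-34a-3p, at 7 in KO and 15 in WT, lay on the 2-fold limit as deposited. The 3p arms of this family and miR-34b-5p are at low levels, where the pseudocount weighs on the ratio. The miR-191 and miR-425 locus at chr9:108568325-108568850 had a median of -0.54, and its main product miR-191-5p had 42182 in KO and 21335 in WT. In the imprinted Dlk1-Dio3 cluster, 12 of 52 rows passed 2-fold upward and 4 downward, near the 21.2% and 9.64% of all rows. With equal totals 4 passed upward and 13 downward, where 7.23% of all rows were higher and 34% lower. In that cluster miR-127-3p had 12073 in KO and 10203 in WT. In the Sfmbt2 cluster, a rodent miRNA array of low level here, the summed level was 267 in KO and 468 in WT. Among its 10 rows 1 passed upward and 4 downward as deposited, where 21.2% of all rows were higher and 9.64% lower, and their median was -0.77. Of 19 rows from the miR-17-92 clusters, 5 passed upward and 0 downward as deposited, near the 21.2% of all rows for the upward calls, and 2 upward and 5 downward with equal totals. In these clusters the abundant miR-20a-5p had 16650 in KO and 14812 in WT.

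The remaining families and clusters are read, as deposited, against the 21.2% of all rows that were higher and the 9.64% that were lower. Their counts with equal totals are read against 7.23% higher and 34% lower. In the miR-183, miR-96 and miR-182 cluster, 3 of 6 rows passed upward as deposited and 2 with equal totals, with a median of 0.97 as deposited, and miR-96-5p had 10364 in KO and 4062 in WT. The miR-148 and miR-152 family had 2 of 6 upward as deposited, 1 with equal totals, and a median of 0.67. The miR-322 cluster had 2 of 9 upward as deposited and a median of 0.59, and with equal totals 1 upward and 2 downward. Those 2 downward rows, miR-450a-3p and miR-450b-3p, held the same values, 24 in KO and 45 in WT, so they are not separate calls. The miR-23, miR-27 and miR-24 clusters had 1 of 8 upward as deposited, and 0 upward and 3 downward with equal totals. In these clusters all 5 of their 3p arms had a ratio below 0, and they took 6.04% of the KO total and 12.8% of the WT total. In the miR-15 and miR-16 family 0 of 9 rows passed as deposited and 5 passed downward with equal totals, and miR-16-5p had 11045 in KO and 19832 in WT. In the miR-181 family 0 of 7 passed as deposited and 1 passed downward with equal totals. As deposited the miR-125 family had 1 of 5 upward and 1 downward, and the miR-26 family had 1 of 4 downward, miR-26a-3p. With equal totals each had 2 downward and 0 upward.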

How the data were processed

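The deposited table gives the authors' normalized miRNA reads as whole numbers, handled here as a score. Columns of the unit other are differences between libraries that the authors computed, per the file headers, and were not used. How the values were normalized, and with which aligner and counter, is not given in the sources used here. Per the submitters' processing notes the genome build was mm10, the same as GRCm38. Total RNA was extracted with Trizol and had an integrity number above 7.0, per the labels' protocols.

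Values were used as deposited. Low values did not fall on multiples of a step, since within 0.5 of the best step there were 51.8% of values from 1 to 40 in KO and 21.2% in WT, so reads were not recovered and the depth is unknown. Rows with a mean under 10 over 3 libraries were removed. Log2 ratios used a pseudocount of 1 and a 2-fold limit, with numpy 2.4.6 and pandas 2.3.3. The calling step was run on simulated data with counting noise only and median-of-ratios factors. That run cannot show how reliable the calls here are. No test across samples was possible, since each group has 1 library. Whole-table totals or median-of-ratios factors, both taken over the 3 libraries, gave the other scalings. Rows with the same name (miR-129-3p and miR-125b-3p) and rows with the same values (miR-99a-5p with miR-100-5p, miR-450a-3p with miR-450b-3p) were kept.

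Named rows were the miR-10 family, the 15 highest and 15 lowest past 2-fold under 3 scalings with a mean of at least 100, the 10 largest gains and losses of share, the 8 widest arm pairs, the 6 highest rows at 0 in 1 library, the 3 most abundant rows of each of 30 lists, and seed or locus groups of at least 3 rows with the 4 highest and 4 lowest medians. The members and lists were chosen with earlier results of these data known. miR-30b-5p, miR-142a-3p, miR-155-5p, miR-146b-5p, miR-132-5p, miR-455, miR-200c, miR-196a-5p, miR-491-5p and miR-493-5p were added after their values were seen. So were miR-29b-5p, miR-34a-3p, miR-450a-3p, miR-450b-3p and miR-499-5p.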

Additional observations from a re-analysis of the deposited data

Results flagged for a closer look

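In the third library, a knockout given the miR-10b-5p mimic and on neither side of the comparison here, miR-10b-5p stood at 469 normalized reads, against 14 in KO and 18057 in WT.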

How the results depend on the processing

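As deposited, 21.2% of the compared rows passed 2-fold upward in KO and 9.64% downward, and these shares moved with the scaling. They were 7.23% and 34% with equal totals, also without the miR-10b rows, 17.1% and 14.7% with median-of-ratios factors, and 17.1% and 15.2% with such factors from KO and WT only. With equal totals without miR-21a-5p, miR-143-3p and miR-192-5p, an alternative chosen after seeing the data, they were 11.6% and 20%. No filter on low values gave 20.2% and 15.9%, a mean of at least 100 gave 19.2% and 5.96%, a 1.5-fold limit gave 33% and 20.7%, and the more abundant arm alone gave 22.3% and 7.81%. The cause was not tested. Pseudocounts of 0.1 and 10, a filter on KO and WT only, and counting repeated names or values once kept both shares within 1.5 times. Of 40 named rows called higher, 19 stayed past 2-fold with equal totals and 33 with median-of-ratios factors, and 24 of 24 called lower stayed under both. Of 30 list medians, 12 changed sign with equal totals, 2 with median-of-ratios factors and 7 with the more abundant arm. No replicate could be left out. No paired analysis was possible because each group has 1 library. The depth is unknown, which limits all low values.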
